A study of Mus musculus with 12 samples.

Results

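Genes of plasminogen activation and blood coagulation were followed in cultured mouse cardiac fibroblasts whose platelet-derived growth factor (PDGF) receptors were stimulated or inhibited. The 9 genes were taken by symbol: Plau, Plat, Plaur, Serpine2, Serpinb2, F3, Tfpi, Thbd and Procr. Each was read from a probe set that carries only that symbol, and 8 of the 9 had such a probe set, 1 for each gene, among 19938 genes measured. Serpine2 had no probe set under its symbol, and its expression was not analysed here.

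The cells were cardiac colony-forming fibroblasts (cCFU-F), sorted from hearts of C57BL/6 male mice aged 12 weeks as positive for SCA1 and PDGFRα and negative for the endothelial antigen CD31, and grown as primary bulk cultures at P0. The 4 groups of 3 arrays each were untreated cells, cells with PDGF-AB added at 50 ng/ml as ligand, and cells with 1 uM or 10 uM of AG1296, which inhibits the kinase of PDGF receptors. The genotype was the same in all groups, and no vehicle or treatment time is given in the sources used here, so an effect of a vehicle and of the inhibitor cannot be told apart. Nothing in the labels says whether arrays of a group came from separate cultures or animals, so p-values here rest on array-to-array spread, which may be technical.

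As background, plasminogen is cut to the protease plasmin by the urokinase-type (Plau) and tissue-type (Plat) activators. The urokinase receptor (Plaur) holds urokinase at the cell surface, and serpins such as Serpinb2 and Serpine2 trap the activators. Coagulation starts when tissue factor (F3), a membrane protein made by fibroblasts around vessels, binds factor VII, and tissue factor pathway inhibitor (Tfpi) blocks that complex. Thrombomodulin (Thbd) and the endothelial protein C receptor (Procr) turn thrombin towards activation of the anticoagulant protein C.

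Values are log2 expression of a probe set as deposited, where a difference of 1 is a doubling, and array medians ran from 4.02 to 4.13. Across genes, which are no independent replicates, Pearson r was 0.992 to 0.996 within groups and 0.987 to 0.995 between groups. All 9 fibroblast markers lay above the array medians. Of 10 endothelial and 10 macrophage markers, 7 each lay below the median of every array, among them Pecam1, Cdh5, Ptprc and Adgre1. Egfl7 and Lyz2 lay above the median of every array, and Tek, Cldn5, Cd68 and Csf1r lay on either side of it. In bulk RNA, fewer cells of a type and less RNA per cell cannot be told apart. The 6 comparisons between groups share arrays and are not independent of each other.

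Promoter sequence was available for 5 of the 8 measured genes, and 4 are shown because these genes passed the test against untreated cells at the lower inhibitor dose, Plaur, Serpinb2 and Tfpi downwards and F3 upwards. Serpinb2 and Tfpi each have 2 promoter entries, and the window of the more upstream entry is printed. The windows of Plaur and Serpinb2 lie inside the annotated genes, which begin at 24460937 and 107500892. The sequences are from RefSeq on GRCm38.p6 and hold the 250 bases before an annotated start, at chr7:24462233-24462482 for Plaur, chr1:107511173-107511422 for Serpinb2 and chr3:121723287-121723536 for F3, all on the plus strand, and at chr2:84476760-84477009 on the minus strand for Tfpi. Capitals mark matches to the AP-1 motif TGANTCA, the site of Fos and Jun dimers, and the Tfpi window holds no match.
Plaur: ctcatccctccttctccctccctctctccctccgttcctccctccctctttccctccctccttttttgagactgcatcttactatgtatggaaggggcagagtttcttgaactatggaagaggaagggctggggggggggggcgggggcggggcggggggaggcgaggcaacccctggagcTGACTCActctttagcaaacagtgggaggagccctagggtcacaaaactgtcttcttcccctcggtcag
Serpinb2: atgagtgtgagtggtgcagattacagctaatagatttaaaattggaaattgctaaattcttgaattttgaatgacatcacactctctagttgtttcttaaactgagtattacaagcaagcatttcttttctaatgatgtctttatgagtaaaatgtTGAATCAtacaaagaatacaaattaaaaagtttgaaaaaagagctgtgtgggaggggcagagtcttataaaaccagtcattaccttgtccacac
F3: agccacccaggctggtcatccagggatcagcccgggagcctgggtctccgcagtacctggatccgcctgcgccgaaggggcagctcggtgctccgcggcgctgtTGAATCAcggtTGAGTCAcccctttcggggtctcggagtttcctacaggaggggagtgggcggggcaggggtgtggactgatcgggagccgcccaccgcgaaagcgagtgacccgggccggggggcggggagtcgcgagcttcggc
Tfpi: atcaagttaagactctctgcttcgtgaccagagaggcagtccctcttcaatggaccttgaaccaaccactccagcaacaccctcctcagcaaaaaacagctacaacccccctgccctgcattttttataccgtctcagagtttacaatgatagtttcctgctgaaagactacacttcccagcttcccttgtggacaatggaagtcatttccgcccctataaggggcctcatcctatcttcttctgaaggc

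The motif began 69 bases before the start in Plaur, 94 bases before it in Serpinb2, and 146 and 135 bases before it in F3. It was also found 154 bases before the start of Procr, and in neither window of Tfpi. Thus 4 of 5 measured genes with an entry held it. Serpine2, which was not measured, also has an entry, and its window held no AP-1 match. By window of the measured genes it was 5 of 7, against 6.75% of all 32851 promoter windows of 250 bases. The windows of Serpinb2 overlap and hold the same site, so they do not count as separate finds. All 5 motifs were searched on both strands. The cAMP response element TGACGTCA and the EGR motif GCGTGGGCG were found in none of the 5 genes and in 1.55% and 0.536% of all windows. The GC box GGGCGG was found in 3 of the 5 genes and 4 of the 7 windows, 3 times each in Plaur and F3 and once in each window of Tfpi, and in 32.7% of all windows. The TATA box TATAAA was found in 2 of the 5 genes and 3 of the 7 windows, against 12.4% of all windows, with the same Serpinb2 site again in both of its windows. In the printed windows it began 29 bases before the start in Serpinb2 and, on the opposite strand, 127 bases before the start in Tfpi. AP-1 matches did not overlap matches of another motif, and a match describes letters, not binding.

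**Figure D1:**
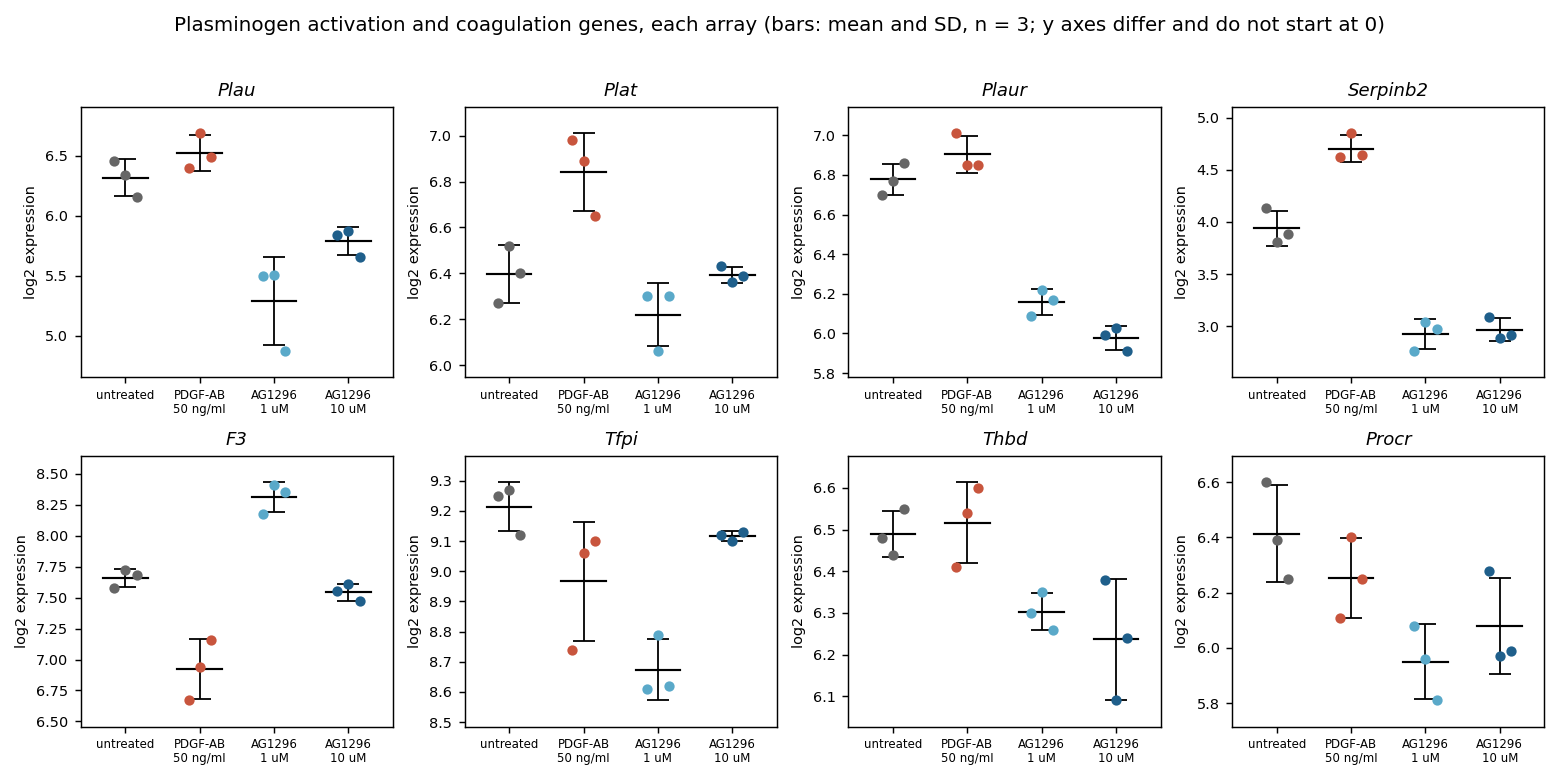
Log2 expression of the 8 measured genes in each of the 12 arrays, by group, with the mean and SD (n = 3) in black; the y axes differ between panels and do not start at 0. Plau, Plaur, Serpinb2 and Thbd were lower in all 6 inhibitor arrays than in any other array, though Thbd passed in no comparison. F3 was lowest with PDGF-AB and highest with AG1296 1 uM.

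In a test over the 4 groups, 6 of the 8 genes differed (limma F test, Benjamini-Hochberg adjusted p under 0.05), where 5% of all genes did. These were Plau, Plat, Plaur, Serpinb2, F3 and Tfpi, while Thbd (adjusted p = 0.221) and Procr (0.138) did not pass. Leaving out PDGF-AB replicate 1 or 2 ended the call for Plat (adjusted p of 0.0666 and 0.0678). For Tfpi it ended on leaving out replicate 1 or 3 at 1 uM (0.114 and 0.0991) or replicate 1 or 2 of untreated cells (0.0616 and 0.0611), so that 5 to 6 genes passed with 1 array left out. Among pairwise comparisons of groups, 20 of 48 gene-by-comparison tests passed, where 0.331% to 5.21% of all genes passed, depending on the comparison. The genes and lists were chosen with earlier results of these data known. The shares of all genes, here and below, are therefore no test of a list.

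Of the activators, Plau fell with the inhibitor at the lower dose, and Plat passed only between PDGF-AB and the inhibitor groups. Plau, on chromosome 14 (20836662 to 20843388 on GRCm38.p6), was at 6.46, 6.34 and 6.16 in untreated arrays, at 6.40, 6.69 and 6.49 with PDGF-AB, at 5.50, 5.51 and 4.87 with AG1296 1 uM and at 5.84, 5.87 and 5.66 with 10 uM. All 6 inhibitor arrays lay below all 6 others, the third array at 1 uM was the lowest, and untreated and PDGF-AB arrays overlapped. At 1 uM Plau fell by 1.03 ± 0.16 on the log2 scale (SE, n = 3), a 2.04-fold change (limma adjusted p = 0.00168). With 10 uM the difference from untreated was -0.53 (95% interval -0.87 to -0.20), which did not pass (adjusted p = 0.128), although it passed without the third 1 uM array, which entered only through the shared spread (adjusted p = 0.0250, with a range of 0.0250 to 0.364 over 20 alternatives). The difference between doses, 0.49, did not pass either (adjusted p = 0.298).

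In order of level, Plau was highest with PDGF-AB, then untreated, AG1296 10 uM and 1 uM, and none of the 3 neighbouring steps passed the test. PDGF-AB and untreated cells differed by 0.21 (interval -0.13 to 0.54, adjusted p = 0.760). PDGF-AB exceeded AG1296 1 uM by 1.24 ± 0.16 (adjusted p = 0.000198) and AG1296 10 uM by 0.74 ± 0.16 (adjusted p = 0.0159). The latter did not pass when PDGF-AB replicate 2 or AG1296 10 uM replicate 3 was left out (adjusted p of 0.0754 and 0.0726, with a range of 0.00149 to 0.0754 over 20 alternatives).

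Plat, on chromosome 8 (22757722 to 22782848), had its highest values with the ligand. It was at 6.27, 6.52 and 6.40 in untreated arrays, at 6.98, 6.89 and 6.65 with PDGF-AB, at 6.30, 6.06 and 6.30 with 1 uM and at 6.43, 6.36 and 6.39 with 10 uM. The 3 PDGF-AB arrays were the highest of the 12, and untreated arrays overlapped with both inhibitor groups. The difference of PDGF-AB from untreated, 0.44 ± 0.11, did not pass (adjusted p = 0.155, and 0.0345 to 0.465 over 20 alternatives). PDGF-AB exceeded AG1296 1 uM by 0.62 ± 0.11 (adjusted p = 0.00289) and 10 uM by 0.45 ± 0.11 (adjusted p = 0.0358). The last call was lost in 10 of 20 alternatives, with adjusted p up to 0.126. Among them were leaving out any 1 of the 10 uM arrays, replicate 1 or 2 of PDGF-AB, replicate 1 at 1 uM or replicate 3 of the untreated arrays. Between inhibitor and untreated cells Plat differed by -0.17 at 1 uM (interval -0.40 to 0.06) and by 0.00 at 10 uM (interval -0.23 to 0.23).

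Plaur, the receptor of urokinase, fell with both inhibitor doses. On chromosome 7 (24460937 to 24475970), it was at 6.70, 6.77 and 6.86 in untreated arrays, at 7.01, 6.85 and 6.85 with PDGF-AB, at 6.09, 6.22 and 6.17 with 1 uM and at 5.99, 6.03 and 5.91 with 10 uM. No inhibitor array reached the lowest array of the other groups, and the ranges of untreated and PDGF-AB arrays overlapped. The fall was 0.62 ± 0.09 at 1 uM (log2, SE; adjusted p = 0.000840) and 0.80 ± 0.09 at 10 uM (adjusted p = 0.000191). In every one of 20 alternatives both calls were kept, with adjusted p up to 0.00798 and 0.00469.

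The dose step of Plaur, 10 uM against 1 uM, was -0.18 (interval -0.36 to 0.01, adjusted p = 0.565), and the step from untreated to PDGF-AB was 0.13 (interval -0.06 to 0.31, adjusted p = 0.729). Thus the order from high to low was PDGF-AB, untreated, 1 uM and 10 uM, with a difference past the threshold only between untreated and 1 uM among neighbours. PDGF-AB lay above 1 uM by 0.75 ± 0.09 (adjusted p = 8.60e-05) and above 10 uM by 0.92 ± 0.09 (adjusted p = 2.42e-05).

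Serpinb2, a serpin that inhibits plasminogen activators and is best known from macrophages, moved in opposite directions with ligand and inhibitor. On chromosome 1 (107500892 to 107525600), it was at 4.13, 3.81 and 3.88 in untreated arrays, at 4.62, 4.85 and 4.64 with PDGF-AB, at 2.76, 3.04 and 2.97 with 1 uM and at 3.09, 2.89 and 2.92 with 10 uM. The PDGF-AB, untreated and inhibitor arrays formed 3 separate ranges, and the ranges of the inhibitor doses overlapped. Its difference was -1.02 ± 0.11 at 1 uM (adjusted p = 0.000127) and -0.98 ± 0.11 at 10 uM (adjusted p = 0.000339), with 0.04 between doses (interval -0.20 to 0.29, adjusted p = 0.949).

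PDGF-AB exceeded the 1 uM group by 1.79 ± 0.11 for Serpinb2, a 3.45-fold difference (adjusted p = 3.24e-07), and the 10 uM group by 1.74 ± 0.11 (adjusted p = 9.18e-07). Against untreated cells the rise of 0.77 ± 0.11 with PDGF-AB passed (adjusted p = 0.0107) but was lost without PDGF-AB replicate 2, without untreated replicate 2 or 3 and with only the 6 arrays compared (adjusted p up to 0.0910). All 6 inhibitor arrays and 2 of 3 untreated arrays lay below their own array's median, where background limits the size of a fold change. Macrophage markers did not pass in any comparison with untreated cells, where 0.331%, 3.2% and 1.88% of all genes did for PDGF-AB, 1 uM and 10 uM. Of these 10 markers, 0 were called in each by limma, and 2, 2 and 1 had an unadjusted p under 0.05. Their summed level ran from 7.0 to 7.20 on the log2 scale in untreated arrays, 6.86 to 7.08 with PDGF-AB, 7.18 to 7.39 with 1 uM and 7.23 to 7.44 with 10 uM, and Lyz2 was lower with PDGF-AB than with 1 uM (adjusted p = 0.0239) or 10 uM (adjusted p = 0.00634).

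F3, which encodes tissue factor, changed in the other direction. On chromosome 3 (121723537 to 121735052), it was at 7.58, 7.72 and 7.68 in untreated arrays, at 6.67, 6.94 and 7.16 with PDGF-AB, at 8.18, 8.41 and 8.35 with 1 uM and at 7.55, 7.61 and 7.47 with 10 uM. PDGF-AB arrays were the lowest and 1 uM arrays the highest of the 12, with untreated and 10 uM arrays in between and overlapping. At 1 uM F3 rose by 0.65 ± 0.12 (adjusted p = 0.00618, and up to 0.0364 over 20 alternatives). With 10 uM it differed from untreated by -0.11 (interval -0.37 to 0.14, adjusted p = 0.816).

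F3 was the only one of the 8 genes with a called dose difference, at 0.376% of all genes called in that comparison. Its difference of 10 uM from 1 uM was -0.77 ± 0.12 (adjusted p = 0.0138). It did not pass once replicate 2 or 3 at 1 uM, or replicate 1 or 3 at 10 uM, was left out (adjusted p of 0.0620 to 0.0828), with differences of -0.77 to -0.72. PDGF-AB lowered F3 against untreated by a difference of -0.74 ± 0.12 (adjusted p = 0.0158), which was lost without PDGF-AB replicate 2, without any 1 untreated array and with only the 6 arrays compared (adjusted p up to 0.157). Against the inhibitor, PDGF-AB lay below 1 uM by a difference of -1.39 ± 0.12 (adjusted p = 5.12e-06) and below 10 uM by -0.62 ± 0.12 (adjusted p = 0.00762), and both calls were kept in all 20 alternatives.

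Tfpi, the inhibitor of the tissue factor and factor VII complex, fell at the lower dose. On chromosome 2 (84432855 to 84476775), it was at 9.25, 9.27 and 9.12 in untreated arrays, at 8.74, 9.06 and 9.10 with PDGF-AB, at 8.61, 8.79 and 8.62 with 1 uM and at 9.12, 9.10 and 9.13 with 10 uM. The 1 uM arrays lay below all untreated and all 10 uM arrays, but overlapped with PDGF-AB, whose replicate 1 stood apart from the other 2. Against untreated, Tfpi at 1 uM had a difference of -0.54 ± 0.10 (adjusted p = 0.00963), while F3 rose in the same arrays. The call was lost without AG1296 1 uM replicate 1 (adjusted p = 0.0567, the highest of 20 alternatives, which began at 0.000127).

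With 10 uM Tfpi differed from untreated by -0.10 (interval -0.32 to 0.12), and the dose difference of 0.44 did not pass (adjusted p = 0.121, and 0.00530 to 0.371 over 20 alternatives). It passed without PDGF-AB replicate 1, which bears on that comparison only through the shared spread (0.0437). The difference of PDGF-AB from untreated was -0.25 ± 0.10 (adjusted p = 0.526). From high to low the order was untreated, 10 uM, PDGF-AB and 1 uM, and no neighbouring step passed.

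Thbd and Procr, receptors of the protein C pathway known mainly from endothelium, passed in none of the 6 comparisons (limma). Thbd, on chromosome 2 (148404471 to 148408188), was at 6.48, 6.44 and 6.55 in untreated arrays, at 6.41, 6.54 and 6.60 with PDGF-AB, at 6.30, 6.35 and 6.26 with 1 uM and at 6.38, 6.09 and 6.24 with 10 uM. The inhibitor arrays all lay below the lowest untreated array, yet the differences were small, at -0.18 (interval -0.39 to 0.02) and -0.25 (interval -0.45 to -0.05; adjusted p = 0.285). PDGF-AB and untreated cells differed by 0.03 (interval -0.17 to 0.23). At an unadjusted p under 0.05 Thbd passed in 3 comparisons, 10 uM against untreated (0.0179) and PDGF-AB against 1 uM (0.0406) and 10 uM (0.0102).

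Procr, on chromosome 2 (155751125 to 155755478), was at 6.60, 6.39 and 6.25 in untreated arrays, at 6.11, 6.40 and 6.25 with PDGF-AB, at 6.08, 5.96 and 5.81 with 1 uM and at 6.28, 5.97 and 5.99 with 10 uM. The 1 uM arrays lay below all untreated and all PDGF-AB arrays, and the 10 uM arrays overlapped with both. The difference at 1 uM was -0.46 ± 0.12 (adjusted p = 0.0603), on either side of the threshold over 20 alternatives (0.0158 to 0.251), and at 10 uM it was -0.33 (interval -0.60 to -0.07, adjusted p = 0.278). At an unadjusted p under 0.05 Procr passed in 3 comparisons, 1 uM (0.00218) and 10 uM (0.0171) against untreated and PDGF-AB against 1 uM (0.0271). Of 10 endothelial markers, 0 passed with PDGF-AB or 10 uM against untreated (2 and 1 at an unadjusted p under 0.05, limma), where 0.331% and 1.88% of all genes passed. With 1 uM 1 of these markers rose and 0 fell, where 3.2% of all genes passed. The summed level of these markers ran from 6.85 to 7.03 over all groups.

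**Figure D2:**
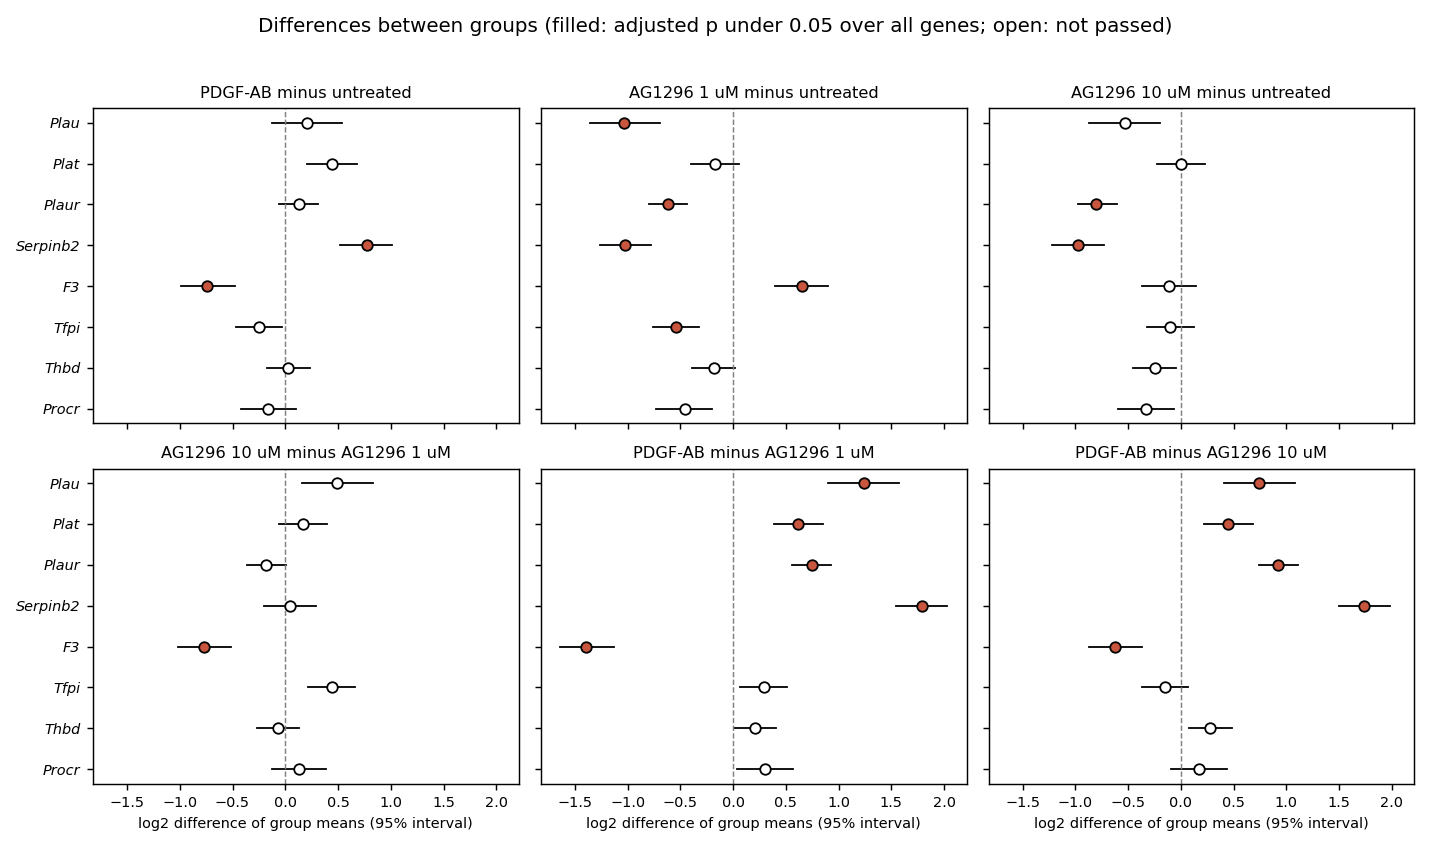
Log2 differences of group means with 95% intervals from the limma fit for the 8 genes in the 6 comparisons; filled points passed at an adjusted p under 0.05 over all genes, and open points did not. In both comparisons of PDGF-AB with the inhibitor, Plau, Plat, Plaur and Serpinb2 were higher and F3 was lower with PDGF-AB.

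Counted by comparison, 1 of the 8 genes rose and 1 fell with PDGF-AB against untreated, where 0.331% of all genes passed, and the median difference was 0.08 against 0.01 over all genes. With AG1296 1 uM, 1 rose and 4 fell, where 3.2% of all genes passed, with a median of -0.50 against -0.01. At 10 uM, 0 rose and 2 fell, where 1.88% of all genes passed, and the median was -0.29 against 0.01. In PDGF-AB against 1 uM, 4 were higher and 1 lower, where 5.21% of all genes passed, with a median of 0.46 against 0.03. In PDGF-AB against 10 uM, again 4 were higher and 1 lower, where 3.42% of all genes passed, with a median of 0.36 against 0.00. In single directions, 0.12% of all genes were higher and 0.211% lower with PDGF-AB against untreated, 1.88% and 1.33% with 1 uM, and 1.21% and 0.672% with 10 uM. For 10 uM against 1 uM these shares were 0.196% and 0.181%, for PDGF-AB against 1 uM 2.28% and 2.93%, and for PDGF-AB against 10 uM 1.42% and 2%. At an unadjusted p under 0.05, 4, 6, 5, 3, 8 and 6 of the 8 genes passed for PDGF-AB, 1 uM and 10 uM against untreated, 10 uM against 1 uM, and PDGF-AB against 1 uM and 10 uM, where 8.55%, 13.1%, 11.4%, 9.07%, 16.9% and 14.1% of all genes did. Between the inhibitor doses the arrays did not overlap for 5 of the 8 genes, where 15.9% of all genes did not.

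The arrays of the groups did not overlap for 4, 7, 4, 7 and 7 of the 8 genes in the 5 other comparisons, in the order above, where 13.3%, 20.3%, 18%, 21.8% and 18.1% of all genes did not overlap. As the 8 genes were chosen with earlier results known, these counts describe them and do not test the list.

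Over the 12 arrays, as a description of points that share groups, Plaur and Serpinb2 correlated most closely among the 28 pairs (Pearson r of 0.93). Plau correlated with Serpinb2 at 0.86 and with Plaur at 0.78. F3 was negatively correlated with all 7 other genes, from -0.89 with Plat to -0.37 with Tfpi. Tfpi and Plat were the least related pair (0.08).

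Genes whose values over the 12 arrays were most like those of each gene that differed in the F test were taken from 970 other genes that differed in it, by Pearson r, as a description. Nearest to Plaur were Ptgs2, the inducible cyclooxygenase (0.973), Dusp6, a phosphatase of ERK (0.970), and Nqo1, a quinone reductase (0.969). For Serpinb2 they were Prl2c5 (0.992), Lrig1 (0.980) and Hecw2 (0.969), and for F3 they were Maob, a monoamine oxidase (0.963), Kcnj15 (0.956) and Lurap1l (0.955). Plau was nearest to Slc38a1, an amino acid transporter (0.966), Lrrc39 (0.958) and Atp1b1 (0.951), and Plat to B4galnt1 (0.936), Inppl1 (0.934) and Cebpb (0.933). Tfpi had less close neighbours in Prcp (0.906), Ptn (0.890) and Cd9 (0.839).

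Other genes of plasmin formation, coagulation and thrombin signalling gave 40 measured of 44 listed, with 1 on a probe set of several symbols and 3 with no probe set under their symbol. Of the 40, 21 lay below the array median in all 12 arrays, including plasminogen itself (Plg), prothrombin (F2) and the fibrinogen chain Fga. With PDGF-AB 0 of 40 passed, against 0.331% of all genes (limma; 6 at an unadjusted p under 0.05, against 8.55%), and their median difference from untreated was 0.11 against 0.01 over all genes. At 1 uM 4 rose and 0 fell, where 1.88% of all genes rose and 1.33% fell, and at 10 uM 3 rose and 0 fell, where 1.21% rose and 0.672% fell, with medians of 0.04 and 0.06 against -0.01 and 0.01. Between doses 0 of 40 passed (limma), against 0.376% of all genes, with 2 at an unadjusted p under 0.05, against 9.07%.

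Those that rose with the inhibitor were endocytic receptors and Gas6. Lrp1, a receptor that takes up complexes of activators and serpins, was at 8.43, 8.30 and 8.36 in untreated arrays, at 8.76, 8.44 and 8.89 with PDGF-AB, at 9.09, 9.01 and 9.10 with 1 uM and at 9.10, 9.13 and 9.36 with 10 uM. All 6 inhibitor arrays were higher than any other array. Lrp1 rose by 0.70 ± 0.11 at 1 uM (adjusted p = 0.00272) and by 0.83 ± 0.11 at 10 uM (adjusted p = 0.00135). PDGF-AB lay below 10 uM by a difference of -0.50, a call lost with only the 6 arrays compared and without AG1296 10 uM replicate 2 or 3 or PDGF-AB replicate 2 (adjusted p = 0.0263, and up to 0.125).

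Mrc2, a collagen receptor that associates with Plaur, rose by 0.54 ± 0.08 at 1 uM (adjusted p = 0.00175) and by 0.52 ± 0.08 at 10 uM (adjusted p = 0.00399), from 7.94 ± 0.07 (mean ± SD, n = 3) to 8.48 ± 0.06 and 8.46 ± 0.08. With PDGF-AB it was at 8.27 ± 0.05, between the untreated and inhibitor ranges. Vldlr, a receptor related to Lrp1, rose at 1 uM by 0.61 ± 0.13 (adjusted p = 0.0181), which no longer passed on leaving out replicate 1 or 2 at 1 uM, or on leaving out replicate 2 or 3 of untreated cells (up to 0.0977). PDGF-AB lay below 1 uM for Vldlr by a difference of -0.67 ± 0.13 (adjusted p = 0.00679). At 10 uM it was at 5.68 ± 0.16 against 5.59 ± 0.08 in untreated cells.

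Gas6, a vitamin K-dependent ligand of the TAM receptors that resembles protein S, was at 7.13, 7.30 and 7.06 in untreated arrays, at 7.56, 6.94 and 7.20 with PDGF-AB, at 8.22, 8.13 and 8.15 with 1 uM and at 8.06, 8.18 and 7.92 with 10 uM. The inhibitor arrays were all higher than the rest, and untreated and PDGF-AB arrays overlapped. It rose by 1.00 ± 0.13 (adjusted p = 0.000651) and 0.89 ± 0.13 (adjusted p = 0.00328) at 1 uM and 10 uM. With PDGF-AB it was lower than in these groups, by differences of -0.94 ± 0.13 (adjusted p = 0.000638) and -0.82 ± 0.13 (adjusted p = 0.00261).

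Between PDGF-AB and the inhibitor, 1 of the 40 was higher and 3 were lower against 1 uM, where 5.21% of all genes passed, and 2 were higher and 2 lower against 10 uM, where 3.42% did. Among them were 3 further genes. Serpini1, which encodes neuroserpin, an inhibitor of Plat, was higher with PDGF-AB than with 1 uM by 0.96 ± 0.16 (adjusted p = 0.00200) and than with 10 uM by 0.77 ± 0.16 (adjusted p = 0.0138). The latter was lost without PDGF-AB replicate 2 or AG1296 10 uM replicate 3 (up to 0.0684). Tfpi2, a Kunitz inhibitor of plasmin and of the tissue factor complex, was at 7.11 ± 0.22 with PDGF-AB and 6.54 ± 0.07 with 10 uM (adjusted p = 0.00743, and 0.0554 with only the 6 arrays compared). F2r, the main thrombin receptor, was at 9.59 ± 0.07 with PDGF-AB, 9.78 ± 0.08 untreated, 9.82 ± 0.02 with 10 uM and 10.06 ± 0.03 with 1 uM. This is the same order of groups as for F3 except for the middle pair, and for F2r only PDGF-AB against 1 uM passed, with a difference of -0.47 ± 0.08 (adjusted p = 0.00228).

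**Figure D3:**
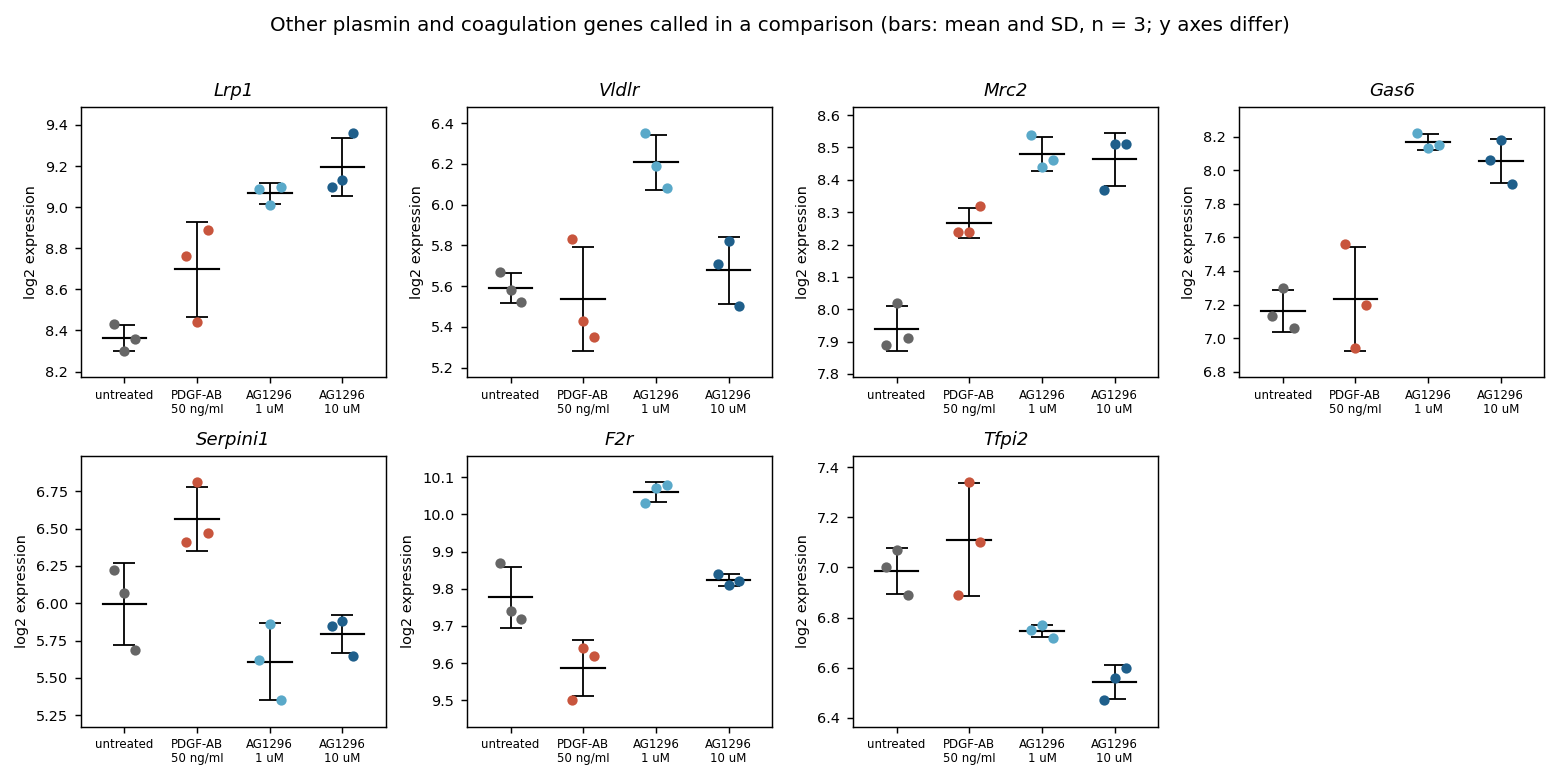
Log2 expression of the 7 other plasmin and coagulation genes called in any comparison, in each of the 12 arrays by group, with the mean and SD (n = 3) in black; the y axes differ between panels. Lrp1, Mrc2 and Gas6 were higher in all 6 inhibitor arrays than in any untreated or PDGF-AB array.

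Markers of fibroblasts and of other cells moved in part with these genes. Of all genes, 1.88% rose and 1.33% fell with 1 uM, and 1.21% rose and 0.672% fell with 10 uM. Among 9 fibroblast markers, 3 rose and 1 fell at each dose. Col1a1, Col3a1 and Dcn rose, and Pdgfra, whose protein was used for sorting, fell (-0.91 and -0.40). The summed level of the fibroblast markers was 13.24 to 13.30 untreated, 13.21 to 13.39 with PDGF-AB, 13.42 to 13.47 with 1 uM and 13.53 to 13.62 with 10 uM. Of 8 mesothelial markers, 3 fell and 1 rose with 1 uM and 2 fell with 10 uM. Upk1b stood at -0.82 and -1.13, Lrrn4 at -0.72 and -0.84, and Krt19 fell at 1 uM (-0.72), whereas Upk3b rose by 0.55. Their summed level ran from 8.48 to 8.52 on the log2 scale in untreated arrays, 8.22 to 8.45 with PDGF-AB, 8.15 to 8.20 with 1 uM and 8.12 to 8.14 with 10 uM, and Msln was below the median of every array. Of 8 pericyte and smooth muscle markers, 0 rose and 1 fell with 1 uM and 1 rose and 1 fell with 10 uM. The one that fell was Mcam (-1.42 and -0.59). The summed level was 8.09 to 8.17 untreated, 8.05 to 8.20 with PDGF-AB, 7.44 to 7.52 with 1 uM and 7.95 to 8.01 with 10 uM. It adds unlogged values, so Mcam weighs most in it, with an untreated mean of 7.36 against 5.50 for Notch3, the next highest. The median difference of the 8 markers at 1 uM was 0. The part of these cells in the results was not tested.

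**Figure D4:**
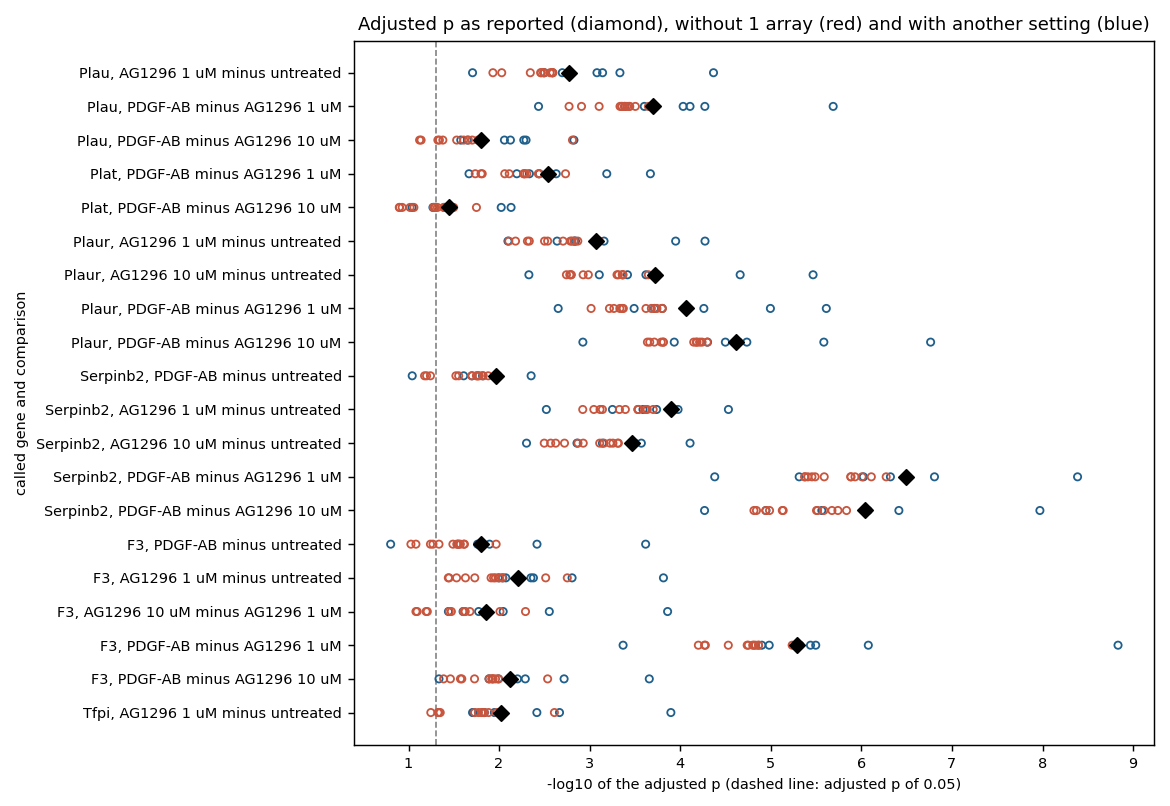
The 20 called differences of the 8 genes, with the adjusted p on a -log10 scale as reported (black diamonds), without each array in turn (red) and with other processing settings (blue); the dashed line marks an adjusted p of 0.05. In 14 of the 20 all points lie right of the line, and for Plat in PDGF-AB against AG1296 10 uM 10 of 20 alternatives lie left of it.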

How the data were processed

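Total RNA (integrity number above 8.0, per the labels' protocols) was biotin-labelled and hybridised to 12 one-colour Affymetrix arrays. The authors deposited a log2 value for each probe set, made with RMA and limma per the submitters' processing notes, with versions and settings not given in the sources used here; base 2 was inferred from how far the values reach. They were used as deposited. Of 28853 probe sets, 21789 had 1 gene symbol in GEO's platform table, 1621 had several and 5443 had none. Only the first kind was used, taking for each gene the probe set with the highest mean, which gave 19938 genes.

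A limma 3.58.1 fit in R 4.3.3 of all 12 arrays with a mean per group gave two-sided tests with empirical Bayes moderation (prior and residual degrees of freedom of 5.35 and 8), adjusted by Benjamini-Hochberg over all genes in each comparison and called under 0.05. Precision is limited by having 3 arrays in a group. The fit was tested on simulated data. The genes and lists were chosen with earlier results of these data known. All 8 measured genes are described, the other pathway genes by name where called, with likeness by the 3 highest correlations, leaving out predicted genes, olfactory and vomeronasal genes and small RNAs. Up to 20 alternatives per result were tried: another fit, scaling, filter, probe rule or moderation, and each array left out. Those for the other pathway genes were chosen after seeing the data.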

Additional observations from a re-analysis of the deposited data

How the results depend on the processing

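Of the 20 called differences of the 8 genes, 14 passed under every alternative that gave a value, 6 were lost under at least 1, and 0 changed sign; of the 28 not called, 5 passed under at least 1. For the other pathway genes 11 of 15 calls passed under every alternative. With only the 6 arrays compared, the number of the 8 genes called for PDGF-AB against untreated was 0 in place of 2. Between the inhibitor doses it was 2 in place of 1 after quantile normalization, with dim genes filtered out and with an intensity trend and robust moderation, since Tfpi then passed. Leaving out 1 array gave 0 to 2 for PDGF-AB against untreated, 0 to 2 between doses, 3 to 5 for PDGF-AB against 10 uM, 4 to 5 for 1 uM and 2 to 3 for 10 uM against untreated, 5 to 6 for PDGF-AB against 1 uM, and 5 to 6 in the F test. The causes were not tested.

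With dim genes filtered out, 9969 genes were tested in place of 19938, and Serpinb2 was not among them. Counts under that filter are therefore out of fewer genes. Over all genes tested, the calls for PDGF-AB against untreated numbered 66. They were 7 with only the 6 arrays, 133 with dim genes filtered out and 160 with the trend. In that order, the calls between doses were 75, 14, 175 and 209, and for 10 uM against untreated 375, 218, 660 and 686. For PDGF-AB against 10 uM they were 682, 391, 1032 and 1077. With only the 6 arrays they were 691 in place of 1039 for PDGF-AB against 1 uM. With dim genes filtered out and with the trend they were 989 and 1010 in place of 639 for 1 uM against untreated and 1518 and 1610 in place of 997 in the F test. Leaving out 1 array, the lowest counts were 21 for PDGF-AB, 349 for 1 uM and 219 for 10 uM against untreated and 16 between doses.

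Arrays share replicate numbers, but same-numbered arrays correlated above 0.1 in their deviations from the group means in 9 of 18 pairs (-0.031 to 0.298), against 1 of 36 differently numbered pairs (-0.243 to 0.181). All 6 pairs among the arrays numbered 2 were above 0.1 (0.154 to 0.298). No pair among the arrays numbered 1 was above 0.1 (-0.016 to 0.065). Among those numbered 3, pairs without the PDGF-AB array were above it (0.162 to 0.217) and pairs with it were not (-0.031 to 0.035). The median was 0.1095 for same-numbered pairs and -0.034 for the others. Thus arrays numbered 2, and those numbered 3 apart from PDGF-AB, shared some variation. What they share was not tested. The main fit leaves it out, and a replicate block was tried as an alternative. With the replicate block, 2, 6, 2, 1, 5 and 4 of the 8 genes were called for PDGF-AB, 1 uM and 10 uM against untreated, 10 uM against 1 uM, and PDGF-AB against 1 uM and 10 uM, in place of 2, 5, 2, 1, 5 and 5, as Procr at 1 uM passed (adjusted p = 0.0490) and Plat did not (0.0519).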
